A study of Mus musculus with 4 samples.

Results

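The collagen genes are the 44 genes on the array whose name consists of Col, the number of a collagen type, the letter a and the number of a chain. Of these, 38 had a probe well above background on all 4 arrays in the control channel or in the treated channel and were analysed, out of 22455 genes of 29924 that met this condition. They were grouped by textbook class into 11 fibrillar chains, 6 type IV chains of basement membranes, 9 FACIT chains and 18 others. The 6 genes that did not meet the condition were Col4a3, Col6a4, Col6a5, Col10a1, Col13a1 and Col28a1. Just outside it lay Col13a1, which was well above background in 3 control and 1 treated channel, and Col4a3, with 1 control and 0 treated channels. Just inside it lay Col19a1 and Col15a1, with mean processed intensities of 13.2 and 16.5 and all 8 channels above background.

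The measurements come from ureters of wild-type NMRI mouse embryos of stage E12.5, which were kept as explants on transwell membranes in medium without serum for 18 h. Treated explants received 10 µM IWP-2, an inhibitor of the acyltransferase Porcupine that WNT ligands need for secretion, and control explants received the solvent DMSO. Each of 4 two-colour arrays set RNA of 1 treated pool of ureters against RNA of 1 control pool, with the treated RNA in red on arrays 1 and 3 and in green on arrays 2 and 4. A pool held whole ureters with epithelium and mesenchyme, so that IWP-2 could act on any cell of the explant, and fewer cells of a type and less RNA per cell cannot be told apart in these values. The labels number the pools but do not say whether they came from separate cultures, and the p-values measure the spread between these 4 arrays.

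Collagens are trimeric proteins with a triple helix of repeated Gly-X-Y units. Fibrillar collagens form the banded fibrils of connective tissue, FACIT collagens (fibril-associated collagens with interrupted triple helices) sit on the surface of such fibrils, and type IV collagen forms the network of basement membranes. In the early ureter a condensing mesenchyme surrounds an epithelial tube with its basement membrane, and part of this mesenchyme later forms smooth muscle and a fibrous outer coat.

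Gene spots had median raw intensities of 368 to 711 in control and 385 to 694 in treated channels, against a local background of 28 to 77, and no spot was saturated. Across the 38 collagens the log2 ratios of any 2 arrays correlated with Pearson r of 0.82 to 0.91, and across all 22455 genes with 0.62 to 0.83. Genes are no independent replicates, so that these r values only describe the arrays.

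IWP-2 shifted single collagen chains in both directions, and the FACIT class held most of the falls for its size. Of the 38 collagens, 13 fell and 9 rose past an adjusted p of 0.05 in limma, and 16 did not pass. These are 34.2% lower and 23.7% higher, against 15% and 18.1% of all genes tested, and 57.9% in either direction against 33.1%. Most changes were small, as 18 of the 22 genes that passed changed by less than 1.5-fold, and their median size was 0.39 on the log2 scale. Col23a1 was lower by more than 1.5-fold, and Col24a1, Col26a1 and Col25a1 were higher by more. These 4 of 38, or 10.5%, compare with 2.95% of all genes, of which 1.91% fell and 1.04% rose past the test by at least this size. All 22 genes had the same direction on 4 of 4 arrays. With Col3a1 these made 23 of 38 collagens with 1 direction throughout, while the share over all genes was 43.4%. The levels of the 4 treated and the 4 control pools did not overlap for 16 collagens, of which 11 were lower and 5 were higher. This is 42.1% of the collagens, against 22.5% of all genes. The median log2 ratio of the 38 genes was -0.01, close to the 0.00 of all genes.

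**Figure D1:**
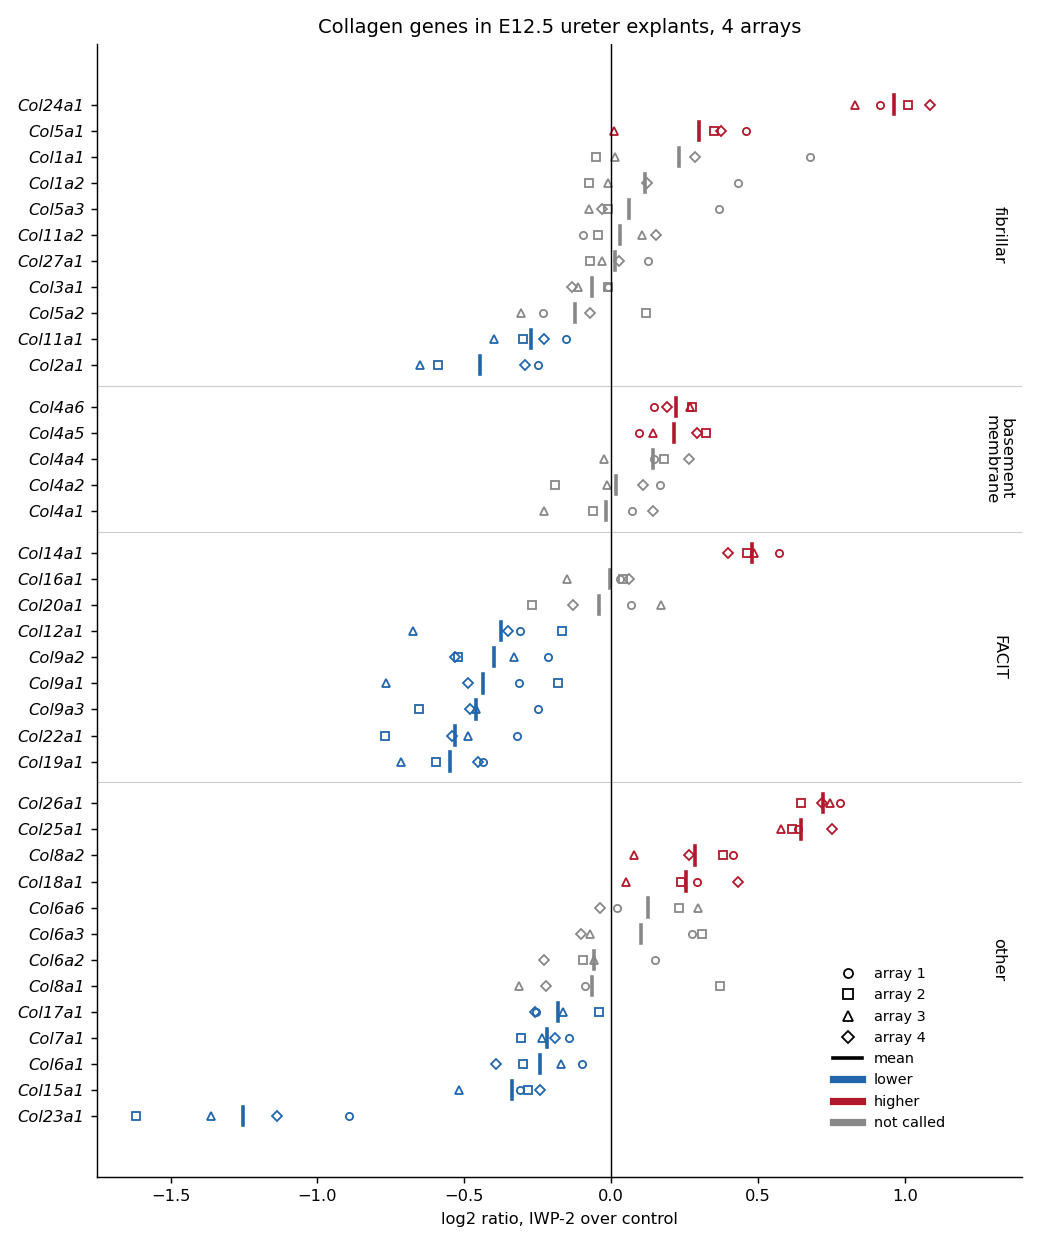
Log2 ratio of IWP-2 over control for each of the 38 collagen genes, by class. Symbols are the 4 arrays, the vertical bar is their mean, and colour shows whether the gene passed the test. Col23a1 lies lowest with a mean of -1.25, Col24a1 highest with 0.96, and 6 of the 9 FACIT chains are lower.

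**Figure D2:**
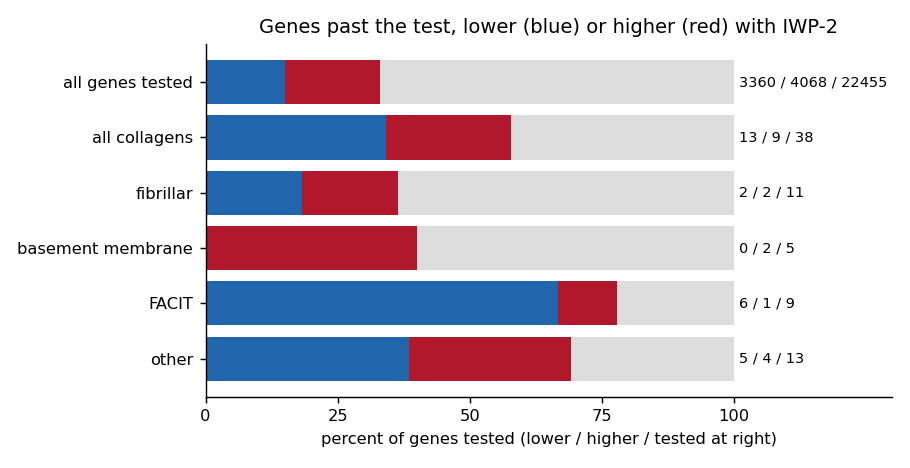
Share of the genes tested that were lower (blue) or higher (red) past the test, for all genes, all collagens and the 4 classes. The numbers at the right give genes lower, higher and tested. The FACIT bar holds 6 lower and 1 higher of 9, the basement membrane bar 0 lower and 2 higher of 5.

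In the fibrillar class 2 of 11 chains were lower, 2 were higher and 7 did not pass, with a median of 0.03 and medians of 0.12, -0.04, -0.03 and 0.03 on arrays 1 to 4. The lower and the higher chains were 18.2% each, near the 15% and 18.1% of all genes. Col24a1, a minor fibrillar chain known from developing bone and cornea, rose most of all collagens. Its log2 ratios on arrays 1 to 4 were 0.92, 1.01, 0.83 and 1.09. All 4 treated levels, at 11.29 to 11.59 on the log2 intensity scale, lay above the control levels of 10.28 to 10.67. The mean was 0.96 ± 0.11 (SD, n = 4), a 1.95-fold difference with an adjusted p = 3.90e-05, and the gene ranked 45 among all rises by size. The probe lies on chromosome 3 at 145214473 to 145214532 of the mm9 build. The 250 bases before the RefSeq start of the gene (GRCm38.p6, chr3:145292222-145292471, plus strand) are shown because Col24a1 was the collagen with the largest rise. They hold no CTTTGA, the core letters of the site bound by the TCF and LEF factors of the WNT pathway, on either strand.
Col24a1: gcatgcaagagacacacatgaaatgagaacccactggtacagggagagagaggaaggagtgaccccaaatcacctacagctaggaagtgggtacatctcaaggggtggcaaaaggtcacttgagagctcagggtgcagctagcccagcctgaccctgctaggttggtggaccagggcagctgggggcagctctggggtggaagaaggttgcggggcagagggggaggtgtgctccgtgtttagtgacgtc

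Col2a1 and Col11a1, chains of the fibrils of cartilage, were lower. For Col2a1 the ratios were -0.25, -0.59, -0.65 and -0.29 on arrays 1 to 4, with treated levels of 14.84 to 15.09 below control levels of 15.10 to 15.74. Its mean was -0.45 ± 0.20 (SD, n = 4, adjusted p = 0.00748). The Col2a1 call was lost with the 8 channels as separate samples without a block and in the authors' series table. Col11a1 fell by 0.27 (SD 0.10, adjusted p = 0.00971), also with no overlap of the levels, and its call was lost in the authors' series table. Its partner Col11a2, measured by a dim probe, lay at 0.03 ± 0.12 and did not pass (adjusted p = 0.710).

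Of the 6 chains of types I, III and V, which make up the common interstitial fibrils, 1 passed the test. It was Col5a1, a chain needed to start the assembly of type I fibrils, which was higher with 0.46, 0.35, 0.01 and 0.37 on arrays 1 to 4. The levels of treated and control pools overlapped, and array 3 showed almost no difference. Its mean was 0.30 ± 0.20 (SD, n = 4, adjusted p = 0.0229), and it was 0.19 without array 1 (adjusted p = 0.0439). The call was lost under 3 of 14 alternatives, which were median centring, the 8 channels without a block and the authors' series table. Its partner Col5a2 was at -0.12 ± 0.19 (adjusted p = 0.0926). Within each of the 4 arrays the ratio of Col5a1 exceeded that of Col5a2, on average by 0.42 ± 0.20. Col1a1 was at 0.23 ± 0.33 and Col1a2 at 0.12 ± 0.23 (adjusted p = 0.159 and 0.293). Both were highest on array 1, at 0.68 and 0.43, and ranged from -0.08 to 0.29 on the other arrays. Without array 3 both passed (adjusted p = 0.0160 and 0.0461). Col3a1 at -0.07 ± 0.07, Col27a1 at 0.01 ± 0.09 and Col5a3 at 0.06 ± 0.21 did not pass either.

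For the type IV chains of basement membranes, 5 of 6 genes were measured, 2 were higher and 0 were lower. These are 40% higher and 0% lower, against 18.1% and 15% of all genes. The class median was 0.14, and it was 0.15, 0.18, -0.02 and 0.19 on arrays 1 to 4. Col4a1 and Col4a2, the chains of the common type IV network, did not pass. Col4a1 lay at 0.07, -0.06, -0.23 and 0.14 on arrays 1 to 4, and Col4a2 at 0.17, -0.19, -0.02 and 0.11. Both therefore straddled 0, with means of -0.02 ± 0.16 and 0.02 ± 0.16 (adjusted p = 0.842 and 0.863). These 2 genes are arranged head to head, and their promoter windows in RefSeq share 78 bases.

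Col4a5 and Col4a6, which form the networks with the alpha5 and alpha6 chains and also lie head to head, were both higher by a small amount. Col4a5 had ratios of 0.10, 0.32, 0.14 and 0.29 on arrays 1 to 4, and its treated levels of 13.98 to 14.07 lay above the control levels of 13.75 to 13.89. The mean was 0.21 ± 0.11 (SD, n = 4, adjusted p = 0.00782). Col4a6 had 0.15, 0.28, 0.27 and 0.19 with overlapping levels, and a mean of 0.22 ± 0.06 (adjusted p = 0.0105). A second and dimmer probe of Col4a6 gave -0.02 ± 0.10, and with the mean of both probes the call was lost (0.10, adjusted p = 0.110), as it was without array 3 (0.19). The Col4a6 call was also lost with the 8 channels without a block and in the authors' series table. Unlike for Col4a1 and Col4a2, the windows of this pair share 0 bases, as their starts lie 1343 bases apart. Col4a4 was at 0.14 ± 0.12 and did not pass (adjusted p = 0.0574), although it passed with the 8 channels as samples and the array as a block (adjusted p = 0.0257), and Col4a3 was not above background. The 7 epithelium markers (Epcam, Cdh1, Krt8, Krt18, Krt19, Cldn4 and Cldn7) were all higher as well, against 18.1% of all genes. Their median was 0.30. Their summed level was 17.64 to 17.96 in treated and 17.46 to 17.58 in control pools, and the part of this shift in the type IV values was not tested.

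In the FACIT class 6 of 9 chains were lower and 1 was higher, or 66.7% and 11.1% against 15% and 18.1% of all genes. In the authors' series table the calls of Col9a1, Col9a3, Col12a1 and Col19a1 were lost (limma adjusted p = 0.130, 0.0603, 0.101 and 0.0684). Those of Col9a2, Col22a1 and Col14a1 were kept there. The median over the class was -0.40, and it was -0.25, -0.27, -0.46 and -0.45 on arrays 1 to 4, below 0 on each array. With the mean of all probes of a gene in place of the brightest the median was -0.28. Type IX collagen decorates the type II fibrils of cartilage with a trimer of 3 chains, and all 3 of its genes were lower. Col9a1 had ratios of -0.31, -0.18, -0.77 and -0.49 on arrays 1 to 4 and a mean of -0.44 ± 0.25 (SD, n = 4, adjusted p = 0.0105), with overlapping levels. Col9a2 had -0.22, -0.52, -0.33 and -0.53 and a mean of -0.40 ± 0.15 (adjusted p = 0.00103). Col9a3 had -0.25, -0.66, -0.46 and -0.48 and a mean of -0.46 ± 0.17 (adjusted p = 0.00166). For Col9a2 and Col9a3 all treated levels lay below all control levels. The mean difference between 2 of these chains within an array was at most 0.06 in size, with SDs of 0.09 to 0.33, so that no chain of the trimer stood apart from the others beyond the spread. A second Col9a1 probe close to background gave -0.08 ± 0.05, and the mean of both probes was -0.26.

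Together with Col2a1 and Col11a1, 5 of the 6 chains of types II, IX and XI were lower, a grouping chosen after the values were seen. Of all genes 15% were lower. Of 6 cartilage markers, Comp, Matn1 and Cnmd were not well above background. Acan was at -0.05 and did not pass, but its probe was close to background with a mean processed intensity of 11.9. Hapln1 (0.04) did not pass either, and Matn4 was lower (-0.36). The summed level of the 3 cartilage markers measured was 11.61 to 12.02 in control and 11.51 to 11.90 in treated pools, and the part of cartilage cells in the collagen values was not tested.

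Of the 6 FACIT chains outside type IX, 3 were lower and 1 was higher, where 15% and 18.1% of all genes were. Col22a1, known from the junctions between muscle and tendon, had ratios of -0.32, -0.77, -0.49 and -0.54 on arrays 1 to 4. Its treated levels of 8.70 to 9.03 lay below the control levels of 9.24 to 9.52, and the mean was -0.53 ± 0.19 (SD, n = 4, adjusted p = 0.00106). Col19a1, known from the muscle of the oesophagus, had -0.43, -0.60, -0.71 and -0.45 and a mean of -0.55 ± 0.13 (adjusted p = 0.00114), with treated levels of 6.60 to 6.70 against 7.12 to 7.31 in control pools. Its probe is dim, and its value depended on the processing most among the collagens, with -1.46 from the processed intensities, -0.12 ± 0.10 for a second dim probe and -0.34 for the mean of both. Smooth muscle markers (Acta2, Tagln, Cnn1, Myh11, Actg2 and Myocd) were lower in 6 of 6, against 15% of all genes. Their summed level was 14.92 to 15.48 in control and 14.26 to 14.78 in treated pools. The part of these markers in the FACIT values was not tested.

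Col12a1 and Col14a1 encode related chains that attach to type I fibrils, and they went opposite ways. Col12a1 had ratios of -0.31, -0.17, -0.67 and -0.35 on arrays 1 to 4 and a mean of -0.38 ± 0.21 (SD, n = 4, adjusted p = 0.00820). Col14a1 had 0.57, 0.46, 0.49 and 0.40 and a mean of 0.48 ± 0.07 (adjusted p = 0.000526). For either gene the treated and the control levels did not overlap. The ratio of Col14a1 exceeded that of Col12a1 by 0.85 ± 0.23 and on each array by at least 0.63. A second Col14a1 probe gave 0.59 ± 0.05. Col16a1 (0.00 ± 0.10) and Col20a1 (-0.04 ± 0.20) did not pass.

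The sequences before the RefSeq starts of Col9a1, Col9a2 and Col19a1 are shown because these 3 FACIT genes fell and each holds CTTTGA or its reverse complement, given in capitals. All are 250 bases of GRCm38.p6 read 5′ to 3′ along the gene, for Col9a1 chr1:24177360-24177609, plus strand, for Col9a2 chr4:121039316-121039565, plus strand and for Col19a1 chr1:24587438-24587687, minus strand. The letters begin 185, 178 and 238 bases before the start. For Col9a1 this is the first of 2 windows of the gene, and the second window does not hold them.
Col9a1: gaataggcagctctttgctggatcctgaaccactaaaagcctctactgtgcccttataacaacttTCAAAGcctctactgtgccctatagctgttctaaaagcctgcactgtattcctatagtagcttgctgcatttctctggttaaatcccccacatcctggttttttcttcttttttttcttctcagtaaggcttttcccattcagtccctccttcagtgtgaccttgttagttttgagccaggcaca
Col9a2: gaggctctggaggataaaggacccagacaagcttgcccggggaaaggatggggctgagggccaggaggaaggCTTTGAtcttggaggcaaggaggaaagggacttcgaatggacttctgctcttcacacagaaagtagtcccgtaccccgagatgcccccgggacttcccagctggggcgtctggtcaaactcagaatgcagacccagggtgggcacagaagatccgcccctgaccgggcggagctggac
Col19a1: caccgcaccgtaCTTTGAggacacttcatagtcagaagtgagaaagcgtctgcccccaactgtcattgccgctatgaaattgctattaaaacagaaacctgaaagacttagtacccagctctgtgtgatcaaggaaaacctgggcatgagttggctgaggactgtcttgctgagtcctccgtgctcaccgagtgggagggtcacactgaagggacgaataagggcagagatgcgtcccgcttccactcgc

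Of the remaining collagens 13 of 18 were measured, with 5 lower and 4 higher. These are 38.5% and 30.8%, against 15% and 18.1% of all genes. The median was -0.06. The sign of this median was not stable, with 0.02, 0.23, -0.07 and -0.19 on arrays 1 to 4, 0.08 without array 4 and 0.10 among genes with a mean processed intensity over 100. The transmembrane collagens, single-pass proteins whose ectodomain can be shed, held the largest fall. Col23a1 had ratios of -0.89, -1.62, -1.36 and -1.14 on arrays 1 to 4. Treated levels of 12.20 to 12.69 lay well below the control levels of 13.47 to 13.81. The mean was -1.25 ± 0.31 (SD, n = 4), a 2.38-fold difference with an adjusted p = 0.000442, and the gene ranked 97 among all falls by size. The probe lies on chromosome 11 at 51396885 to 51396944 (mm9), and 2 further probes ranged over the arrays from -1.41 to -0.60 and from -1.43 to -0.73. The 250 bases before the start of Col23a1 (GRCm38.p6, chr11:51289670-51289919, plus strand), shown as those of the collagen with the largest fall, do not hold CTTTGA on either strand.
Col23a1: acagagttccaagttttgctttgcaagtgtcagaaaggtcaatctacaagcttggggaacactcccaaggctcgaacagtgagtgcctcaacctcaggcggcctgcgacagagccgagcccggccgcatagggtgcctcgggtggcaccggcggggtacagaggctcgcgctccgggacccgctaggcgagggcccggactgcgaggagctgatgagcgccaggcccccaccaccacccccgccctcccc

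Col25a1, a transmembrane collagen known from neurons and muscle innervation, went the other way with 0.63, 0.62, 0.58 and 0.75 on arrays 1 to 4. Its treated levels of 12.22 to 12.53 lay above the control levels of 11.64 to 11.87. The mean was 0.65 ± 0.07 (SD, n = 4, adjusted p = 0.000219), and 3 further probes gave 0.43 to 0.64. The further probe at 0.43 ± 0.31 was at -0.03 on array 3 and at 0.55 to 0.64 on the other arrays. Col17a1, a hemidesmosome component, was lower by a small amount (-0.18 ± 0.10, adjusted p = 0.0347), and its call was lost under 7 of 13 alternatives, 3 of which left out 1 array.

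Col26a1, a collagen first known from the developing gonads, was higher on every array, with 0.78, 0.65, 0.74 and 0.72. The treated levels of 14.45 to 14.72 lay above the control levels of 13.73 to 13.98, and the mean was 0.72 ± 0.06 (SD, n = 4, adjusted p = 9.46e-05). A second probe overlapping the first gave 0.71 ± 0.04. Its position is chromosome 5, 137217629 to 137217688, in mm9.

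**Figure D3:**
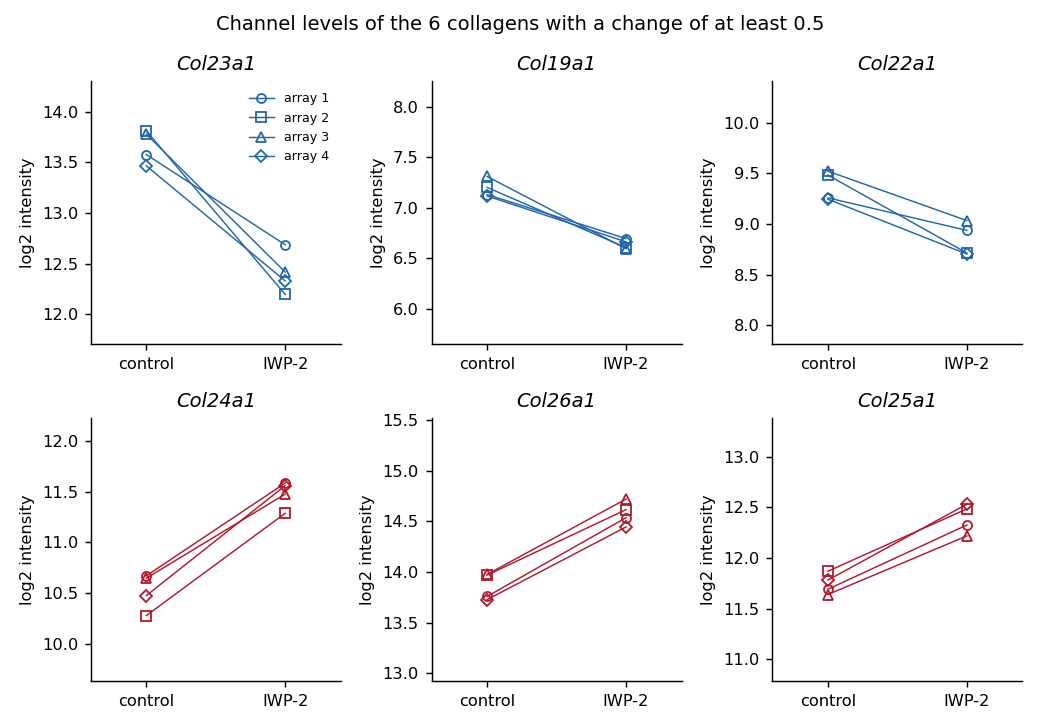
Log2 intensity of the control and the IWP-2 channel of each array, joined by a line, for the 6 collagens that passed the test with a mean log2 ratio of at least 0.5 in size. Each panel spans the same range. All 4 lines fall for Col23a1, Col19a1 and Col22a1 and rise for Col24a1, Col26a1 and Col25a1, and in no panel do treated and control levels overlap.

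The multiplexins Col15a1 and Col18a1, basement membrane zone collagens that release endostatin and related fragments, moved apart. Col15a1 was lower (-0.34 ± 0.12, adjusted p = 0.00329) and Col18a1 higher (0.25 ± 0.16, adjusted p = 0.0175). The ratio of Col18a1 was above that of Col15a1 on each array by 0.52 to 0.67. The Col15a1 probe is dim, and the processed intensities gave -0.76 for it. The Col18a1 call was lost under 5 of 14 alternatives, among them leaving out array 1 or array 4, while a second probe gave 0.23 ± 0.08. Col7a1, which forms the anchoring fibrils under epithelia, fell by 0.22 (SD 0.07, adjusted p = 0.0108). Its call was lost without array 3, with the 8 channels without a block and in the authors' series table.

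Type VI collagen forms beaded filaments from 3 chains. Col6a1 was lower, with -0.10, -0.30, -0.17 and -0.39 on arrays 1 to 4 and a mean of -0.24 ± 0.13 (adjusted p = 0.00642). Its call was lost with the 8 channels without a block and in the authors' series table. Col6a2 at -0.06 ± 0.16 and Col6a3 at 0.10 ± 0.22 did not pass (adjusted p = 0.420 and 0.393). The ratio of Col6a1 was below that of either partner on all 4 arrays, on average by 0.18 ± 0.06 for Col6a2 and by 0.34 ± 0.21 for Col6a3. The Col6a2 probe is dim, with a mean processed intensity of 57.4 against 3003 for Col6a1. The offset used here draws ratios of dim probes towards 0, and its part in the difference to Col6a2 was not tested. Col6a6 (0.13 ± 0.16) did not pass, and its second probe gave -0.09 ± 0.09. Type VIII collagen forms hexagonal lattices in vessels and in the cornea. Col8a2 was higher (0.28 ± 0.15, adjusted p = 0.0159), a call also lost with the 8 channels without a block and in the authors' series table. Its partner Col8a1 was at -0.06 ± 0.30 with 0.37 on array 2 and -0.32 to -0.09 on the others, and it passed the test only without array 2 (-0.21, adjusted p = 0.0448).

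Col15a1 and Col6a1 are the other 2 lower collagens whose sequence before the start holds CTTTGA or its reverse complement. These letters, in capitals, begin 130 bases before the start of Col15a1 (chr4:47207762-47208011, plus strand) and 78 bases before that of Col6a1 (chr10:76726045-76726294, minus strand) in GRCm38.p6.
Col15a1: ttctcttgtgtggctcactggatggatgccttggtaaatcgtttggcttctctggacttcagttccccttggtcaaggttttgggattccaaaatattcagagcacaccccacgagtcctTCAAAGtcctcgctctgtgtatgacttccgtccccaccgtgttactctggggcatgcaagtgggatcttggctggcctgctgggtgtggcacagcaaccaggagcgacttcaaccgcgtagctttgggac
Col6a1: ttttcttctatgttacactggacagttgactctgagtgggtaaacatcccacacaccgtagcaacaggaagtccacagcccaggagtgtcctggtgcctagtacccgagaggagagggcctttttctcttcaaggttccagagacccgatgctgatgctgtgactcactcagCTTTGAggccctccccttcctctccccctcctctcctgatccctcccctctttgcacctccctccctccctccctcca

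Promoter windows of 300 bases, from 250 before to 50 after a start, were found in RefSeq for 35 of the 44 collagens. These were 38 windows, as 3 genes have 2 each. None of the 3 motifs searched contains another. The letters CTTTGA were present on either strand in 5 of 10 windows of lower collagens, in 0 of 8 windows of higher collagens and in 3 of 15 windows of collagens that did not pass. They were held by 16% of all 32851 windows that RefSeq gave for the mouse. GGGCGG, the GC box bound by SP factors, was present in 4 of 10, 6 of 8 and 11 of 15 windows of these groups and in 35.7% of all windows. CCAAT was present in 4 of 10, 3 of 8 and 5 of 15, and in 37.4% of all windows. Neither of the 2 collagens with the largest changes, Col23a1 and Col24a1, held CTTTGA in this window, and Col2a1, Col22a1, Col9a3, Col12a1, Col14a1 and Col26a1 had no window. Over all 38 collagen windows 9, or 23.7%, held CTTTGA. Apart from the lower collagens these belong to Col5a3, Col6a2 and Col20a1, which did not pass, and to Col13a1, which was not above background.

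Several collagen genes lie next to each other with no other protein-coding gene between them in the RefSeq table (GRCm38.p6). Col9a1 and Col19a1 are such a pair, and both were lower. Col4a5 and Col4a6 were both higher. Col3a1 with Col5a2 and Col4a1 with Col4a2 did not pass in either member. Col6a1 was lower beside Col6a2, which did not pass. The pairs Col4a4 with Col4a3, Col6a6 with Col6a5 and Col6a5 with Col6a4 held a gene that was not above background.

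Where a collagen had several probes above background they mostly had 1 direction. For 11 of the 22 genes that passed there were 14 further probes, of which 13 had the sign of the probe used and 1, for Col4a6, had the opposite sign. In 4 cases the further probe gave less than 0.5 of the change, and all 4 had a mean processed intensity under 100 (Col4a6, Col9a1, Col12a1 and Col19a1). Of the 38 collagens 28 had a mean processed intensity over 100, and 9 of these were lower and 9 higher when tested with genes above that limit alone. Among all 15529 genes above the limit, 2677 were lower and 3043 higher.

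**Figure D4:**
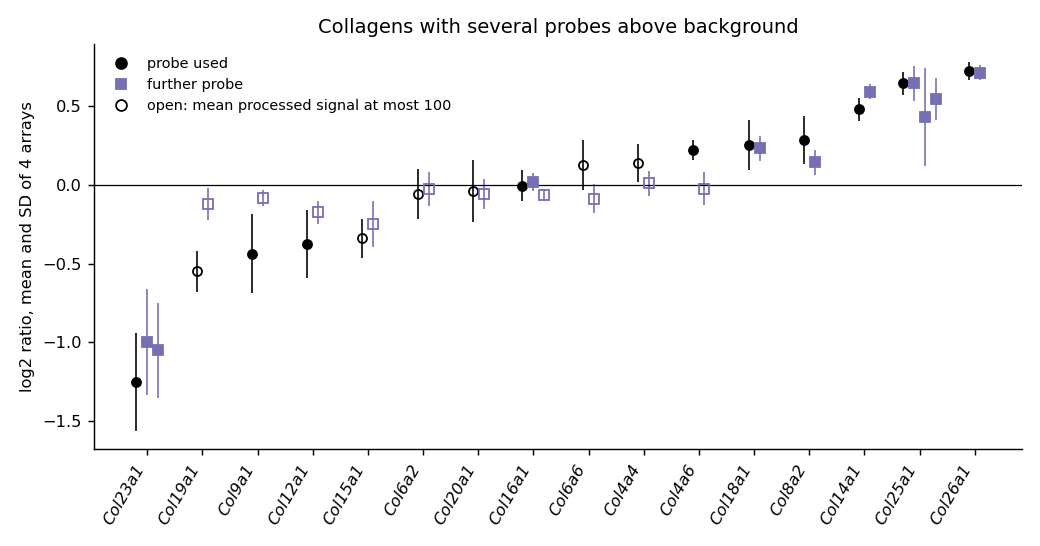
Mean log2 ratio with its SD over 4 arrays for each probe of the 16 collagens that have several probes above background. Circles are the probe used, squares are further probes, and open symbols mark a mean processed intensity of at most 100. The probes of Col23a1 and Col26a1 lie together, and those of Col25a1 range from 0.43, with an SD of 0.31, to 0.65. The dim second probes of Col19a1 and Col9a1 lie near 0.

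Collagen chains are hydroxylated and glycosylated in the endoplasmic reticulum, folded and exported, trimmed by propeptidases and cross-linked outside the cell. A list of 52 genes for these steps and for collagen receptors had 51 members above background, of which 11 were lower and 9 higher, and a median of -0.02. Of all genes 15% were lower and 18.1% higher, and the counts of this list lie near these shares. The number higher was 3, 4, 6 and 4 without arrays 1, 2, 3 and 4 and 2 without a dye term. Among the genes of chain modification 0 of 15 were lower and 2 were higher, and for folding and export the counts were 2 and 1 of 11. For propeptide removal 4 of 7 were lower and 2 higher, with a median of -0.38, and for cross-linking 3 of 6 were lower and 1 higher. In the cross-linking group the fall of Lox (-0.20) was lost under 7 and that of Loxl3 (-0.13) under 10 of 14 alternatives. Receptors and uptake had 1 lower and 1 higher of 8, and basement membrane partners 1 and 2 of 4. The higher genes of these groups, Itgb1 (0.14), Agrn (0.19) and Hspg2, each lost the call under 10 of 14 alternatives. The sign of Itgb1 followed the dye order, with -0.14, 0.42, -0.07 and 0.34 on arrays 1 to 4.

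Tll1, a tolloid protease that removes the C-terminal propeptide of fibrillar collagens, fell more than any collagen. It had ratios of -1.82, -2.15, -2.13 and -2.06 on arrays 1 to 4, and treated levels of 7.28 to 7.53 against 9.10 to 9.66 in control pools. The mean was -2.04 ± 0.15 (SD, n = 4), a 4.11-fold difference with an adjusted p = 1.22e-05, and the mean of all its probes was -1.13. Bmp1, the related main protease of this step, did not pass (0.01 ± 0.12). Pcolce2, an enhancer of the cleavage, was lower (-0.58 ± 0.16, adjusted p = 0.000665). Its probe is dim, and the processed intensities and the authors' series table gave larger falls of -0.88 to -0.91. Its relative Pcolce was at 0.14 ± 0.03 (adjusted p = 0.0310), a call lost under 7 of 14 alternatives. Of the propeptidases for the N-terminal end, Adamts3 (-0.51 ± 0.09, and -0.33 for the mean of its probes) and Adamts14 (-0.38 ± 0.18) were lower, and Adamts2 was higher by 0.18 ± 0.11, a call lost under 8 of 13 alternatives.

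Among the lysyl oxidases, which start the cross-linking of collagen and elastin, Loxl1 was higher with ratios of 0.68, 0.42, 0.82 and 0.46 and a mean of 0.59 ± 0.19 (adjusted p = 0.000290). Loxl2 was lower (-0.42 ± 0.21, adjusted p = 0.00730). Colgalt2, a galactosyltransferase for hydroxylysine, was higher (0.79 ± 0.08, adjusted p = 0.000120), while Colgalt1 did not pass (-0.05 ± 0.06). Creb3l1, a transcription factor of secretory cells, was lower (-0.51 ± 0.23, adjusted p = 0.00598), as was Fkbp7, a prolyl isomerase of the endoplasmic reticulum (-0.35 ± 0.10). Serpinh1, the collagen chaperone, did not pass (-0.02 ± 0.13). Nid2, a nidogen that joins laminin to type IV collagen, was lower (-0.62 ± 0.20, adjusted p = 0.00215), and Nid1 did not pass (-0.08 ± 0.19). Hspg2 (perlecan), a proteoglycan of basement membranes, was higher (0.34 ± 0.30, adjusted p = 0.0473), with -0.10 on array 3. Its value was 0.17 without array 1 and 0.51 without array 3. Itga1, a collagen-binding integrin chain, was lower too (-0.36 ± 0.15, adjusted p = 0.00309).

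**Figure D5:**
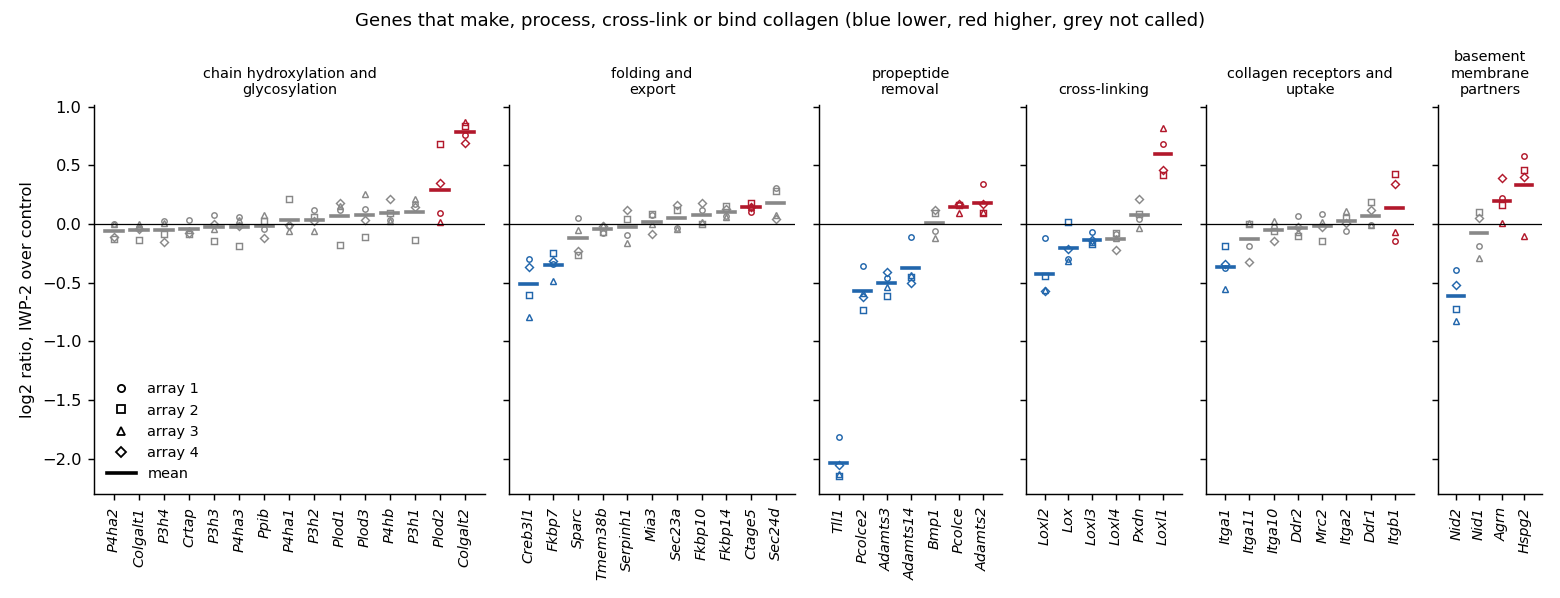
Log2 ratio of IWP-2 over control for 51 genes that modify, export, trim, cross-link or bind collagen, by step. Symbols are the 4 arrays and the bar is their mean. Tll1 stands lowest at -2.04, Colgalt2 and Loxl1 highest at 0.79 and 0.59, and most genes of chain modification lie near 0.

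Markers of other cells in the explant moved with the treatment as well. Of the mesenchyme markers Tcf21 was lower (-0.67), Twist1 (0.85) and Pdgfrb (0.80) were higher, Vim and Pdgfra did not pass and Dpt was not above background. The summed level of the 5 measured was 17.38 to 17.52 in control and 17.47 to 17.58 in treated pools. Endothelium markers were higher in 4 of 6, blood markers in 4 of 6, macrophage markers in 3 of 5 and nephron progenitor markers in 5 of 6, with the sixth, Crym, lower. Of all genes 18.1% were higher. The sign of the blood marker Hbb-y followed the dye order, with 0.61, -0.10, 0.73 and -0.14 on arrays 1 to 4. Hba-a1 was at -0.03 on array 2. The nephron progenitor marker Eya1 had 0.02, 0.32, -0.07 and 0.40 on arrays 1 to 4. For the macrophage marker C1qa the ratios were 0.44, 0.00, 0.33 and 0.03. Both Eya1 and C1qa thus lay near 0 in 1 of the dye orders. The part of these shifts in the collagen values was not tested.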

How the data were processed

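The 4 two-colour arrays were scanned by the authors and read with Agilent Feature Extraction 10.7.3.1, per the submitters' processing notes. The deposited files give for each spot a raw mean and background intensity per channel, a processed intensity (background-subtracted and dye-normalised, per the file headers) and a log10 ratio, which was used only to check the direction. The authors' series table holds 1 signed fold change per probe and array, with its normalisation not given in the sources used here. Its log2 values followed the processed ratios with r of 0.988 to 0.992, and it served as an alternative.

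Raw intensities were corrected with normexp (offset 50) and loess (span 0.3) in limma 3.58.1 under R 4.3.3. Control spots and outlier spots (3.01% to 3.38%) were left out, and the 4 spots of a probe were averaged. A channel was well above background where more than 0.5 of the spots were. The brightest probe stood for a gene, and values on all 4 arrays were required. Log2 ratios were fitted with lmFit and eBayes on treatment direction and dye, two-sided, with Benjamini-Hochberg adjustment over 22455 genes. The offset draws ratios of dim probes towards 0. An unadjusted dye p under 0.05 was found for 18.9% of genes and 5 collagens, and for 0 genes after adjustment. Channel levels are log2 intensities after Aquantile normalisation, and a summed marker level is the log2 of the summed levels.

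Members and lists were chosen with earlier results of these data known. Every collagen past the test is named. Values per array are given for those with a change of at least 0.5 and for the 3 largest past the test in a class. Partner chains are named whether or not they passed, some with values per array. Of the other genes on collagen handling the 12 with the largest changes past the test are named, and Pcolce, Adamts2, Lox, Loxl3, Itgb1, Agrn, Bmp1, Colgalt1, Serpinh1 and Nid1 were added after their values were seen. The fit was tested on simulated data. The changes put in had a size of at least 0.5 on the log2 scale, and their mean estimates were recovered. Recovery of smaller changes, which are most of those called here, was not tested. The share of false calls in the simulation was above the nominal 0.05. Only 200 of the 22455 genes were changed there, while 33.1% were called in the data, so that this share cannot be carried over. Calls close to the threshold should still be read as less certain than their adjusted p. Probe positions are those of the files (mm9), and no annotation of that build was used. One list of cell type markers is not reported here.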

Additional observations from a re-analysis of the deposited data

Results flagged for a closer look

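Among 63 results, which were the ratios of the 38 collagens, of the 20 collagen handling genes past the test and 5 medians, 3 had 1 array with a wide gap to its nearest neighbour, measured against the range of all 4. Chance alone does this in about 1 of 20 results, or 3.15 of 63. Col5a3 was at 0.37 on array 1 and at -0.08 to -0.01 on the others. Col16a1 was at -0.15 on array 3 and at 0.03 to 0.06 on the others. Pcolce was at 0.0947 on array 3 and at 0.16 to 0.17 on the others. Neither of the 2 collagens passed the test.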

How the results depend on the processing

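Under 14 alternatives 9 of the 22 collagens past the test kept their call each time in which they could be fitted (Col23a1, Col24a1, Col25a1, Col26a1, Col22a1, Col14a1, Col9a2, Col4a5 and Col15a1), 13 lost it at least once, and 0 changed sign. In the authors' series table the collagens numbered 4 lower and 5 higher, and 2050 and 1833 of all genes. Each array ratio already pairs a treated with a control pool of the same number. With the 8 channels as separate samples and no replicate block, 9 collagens were lower and 5 higher, with 2065 and 2040 of all genes and 2 handling genes higher. Leaving out 1 array in turn gave 11 to 14 collagens lower and 8 to 10 higher, 2180 to 2813 of all genes lower and 2878 to 3345 higher, and 9 to 11 handling genes lower and 3 to 6 higher (2180 without array 3; 3, 4 and 4 without arrays 1, 2 and 4). Higher handling genes numbered 4 with median centring and 2 without a dye term, and lower ones 7 among the 42 with a mean processed intensity over 100. The FACIT median was -0.28 with the mean of all probes. The cause of these shifts was not tested, apart from the fewer genes above the intensity limit. A slide or scan block could not be run, since all 4 arrays share 1 slide and 1 scan. Ratios of dim probes (Col19a1, Col15a1 and Col9a3) are limited by their signal over background. The median of all genes lay between -0.01 and 0.02 under each setting.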
